A study of Mus musculus with 10 samples.

Results

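The response of mouse epiblast-like cells (EpiLCs) to activin A was read from 1 RNA-seq library of R1 EpiLCs made with activin A and 1 library of R1 EpiLCs made without it. All genes with at least 5 FPKM (fragments per kilobase of transcript and per 1e6 fragments) in either library were compared, which were 8963 of the 22867 gene symbols in the deposited tables. The R1 line is a wild-type embryonic stem cell (ESC) line of the mouse strain 129SV. Both cultures were differentiated for 48 h from R1 ESCs on fibronectin, in serum-free N2B27 medium with bFGF and knockout serum replacement, and in the treated culture the medium also held 20 ng/ml of activin A. The series holds 10 libraries, all of 129SV cells. The other 8 were EpiLCs of an Otx2-/- line and of the E14 line (1 library each, for which the labels do not say whether activin A was given), R1 ESCs (2 replicates), ESCs of the Otx2-/- and E14 lines (1 library each), and ESCs of an Otx2-/- line with a doxycycline-inducible Otx2 transgene (1 library with and 1 without doxycycline). ESC cultures were kept with LIF and with inhibitors of MEK (0.8 µM PD0325901) and GSK3 (3.3 µM CHIR99021). The protocol mentions independent replicates of EpiLC cultures without saying which libraries they are, so the activin A pair has no replicate check and no p-value is given for it.

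Activin A is a secreted dimer of the TGF-beta family and signals like Nodal, the related ligand that epiblast cells make themselves. Both bind type II receptors (Acvr2a, Acvr2b), which activate type I receptors (Acvr1b, Acvr1c), and these phosphorylate Smad2 and Smad3, which enter the nucleus with Smad4 and act on genes together with partners such as Foxh1. Nodal also needs the co-receptor Cripto (Tdgf1), which activin does not. Among the known targets in early mouse embryos are inhibitors of the pathway itself, such as Lefty1, Lefty2 and Smad7, and activin A or Nodal is commonly used to hold primed pluripotent cells.

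Both libraries matched the label of EpiLCs. All 7 EpiLC markers examined (Fgf5, Pou3f1, Otx2, Dnmt3b, Dnmt3a, Sall2 and Zic2) were higher in both than in any of the 4 R1, Otx2-/- and E14 ESC libraries. All 7 ESC markers (Klf4, Tfcp2l1, Tbx3, Esrrb, Nanog, Zfp42 and Prdm14) were lower in both than in any of those ESC libraries. Otx2 stood at 151 FPKM with activin A and 107 FPKM without it, against 3.96 to 9.09 FPKM in the 4 ESC libraries. Pou5f1, the pluripotency factor Oct4, stood at 548 FPKM with activin A and 525 FPKM without it. Of the 6 primitive streak markers, Eomes alone reached 5 FPKM, at 7.61 FPKM with activin A and 5.42 FPKM without it, and the other 5 (T, Mixl1, Gsc, Evx1 and Mesp1) stayed under 1 FPKM in both libraries. The definitive endoderm markers Foxa2, Sox17 and Cxcr4 were under 1 FPKM in both libraries, with Cxcr4 at 0.643 FPKM with activin A and 0.630 FPKM without it.

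Rough depths estimated from the lowest values of olfactory receptor genes were 16.0M fragments (M for 1e6) in the library with activin A and 19.1M in the one without, within a range of 6.55M to 20.6M over all 10. A transcript of 2 kb at 5 FPKM would have about 160 fragments in the library with activin A and 191 in the one without. Among the ESC libraries, R1 replicate 1 stood apart: 881 genes (9.9%) differed at least 2-fold between R1 replicates 2 and 1, against 65 (0.749%) between R1 replicate 2 and E14. The Otx2-/- EpiLC library still had 15.8 FPKM for Otx2, against 39.9 FPKM in E14 EpiLCs.

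Few genes differed between EpiLCs with and without activin A. Differences are given on the log2(FPKM + 1) scale as the value with activin A minus the value without it, so 1 is 2-fold, and the added 1 shrinks the differences of genes with low FPKM. Over all 8963 entries, 96 were at least 2-fold higher and 96 at least 2-fold lower (2.14% in all, 1.07% each way). Of these 192 entries, 69 of the higher and 60 of the lower were classed by name as small RNAs such as microRNAs and snoRNAs. Selection of polyadenylated RNA does not measure small RNAs reliably. The class also takes in snoRNA host genes (Snhg) and entries that name a longer gene together with a microRNA, such as Meg3, to which that reason does not apply. A further 6 higher and 8 lower entries were listed at exactly 0 in 1 of the pair while at 5 FPKM or more in the other. They included Birc6, Lama5 and Scrib, listed at 0 with activin A, and Itpr1 and Med12, listed at 0 without it, all of which were above 5 FPKM in several other libraries. Leaving out all small RNAs and such entries gives 8693 genes, of which 49 passed 2-fold (0.564%), 21 of them higher (0.242%) and 28 lower (0.322%). At a 1.5-fold limit the counts were 80 and 91, and at a 4-fold limit 2 and 4. The median difference over the 8693 genes was -0.01, and 95% of them lay between -0.40 and 0.43.

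**Figure D1:**
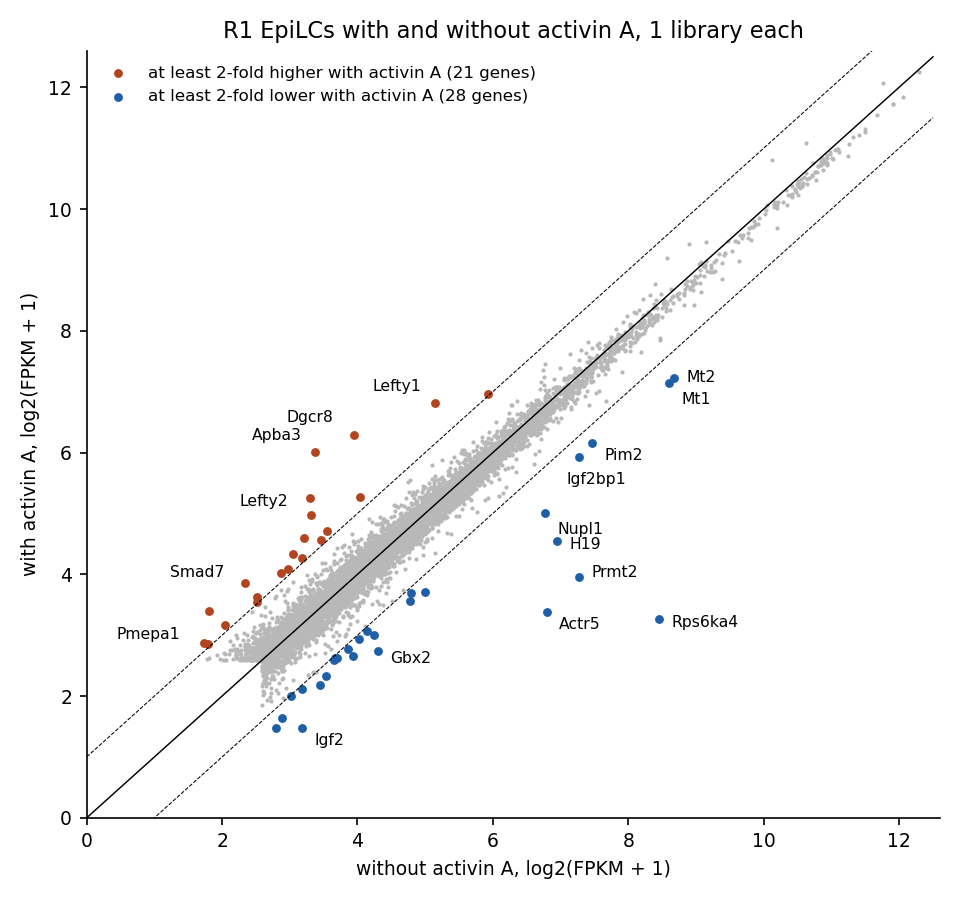
Level of each of 8693 genes in R1 EpiLCs with activin A (vertical axis) and without it (horizontal axis), both as log2(FPKM + 1), small RNAs and zero entries removed. The solid line marks equal levels and the dashed lines a 2-fold difference; 21 genes lie past the upper dashed line and 28 past the lower one.

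The limits cut through a continuous range. Just inside the limit of 5 FPKM, Tmem127 had 5.001 FPKM with activin A and 4.42 FPKM without it, and just outside it Gnb4 had 4.98 FPKM with activin A and 4.999 FPKM without it. Just inside the 2-fold limit lay Gm11627 with a difference of -1.01, and just outside it Gadd45g with -0.96 and Stra8, a gene of germ cells entering meiosis, with -0.999.

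Fewer genes were past 2-fold in the activin A pair than in any of the other 5 pairs of EpiLC libraries. On the same reduced set of entries, 95 genes (1.1%) were past 2-fold between Otx2-/- and E14 EpiLCs. Against the R1 library with activin A, 564 genes (6.31%) were past 2-fold in Otx2-/- EpiLCs and 527 (5.93%) in E14 EpiLCs. Against the R1 library without it, these counts were 382 (4.33%) and 286 (3.26%). The middle 50% of differences spanned 0.23 on the log2 scale in the activin A pair, 0.29 between Otx2-/- and E14 EpiLCs, 0.71 between the R1 ESC replicates and 0.23 between Otx2-/- and E14 ESCs, where 50 genes (0.58%) were past 2-fold. Of the 21 genes higher with activin A, 16 differed more in this pair than both between the R1 ESC replicates and between Otx2-/- and E14 EpiLCs, and so did 21 of the 28 lower genes. Over all 8693 genes the share was 11.1%. The 2-fold limit favours large differences in the activin A pair, so the first counts are a description.

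**Figure D2:**
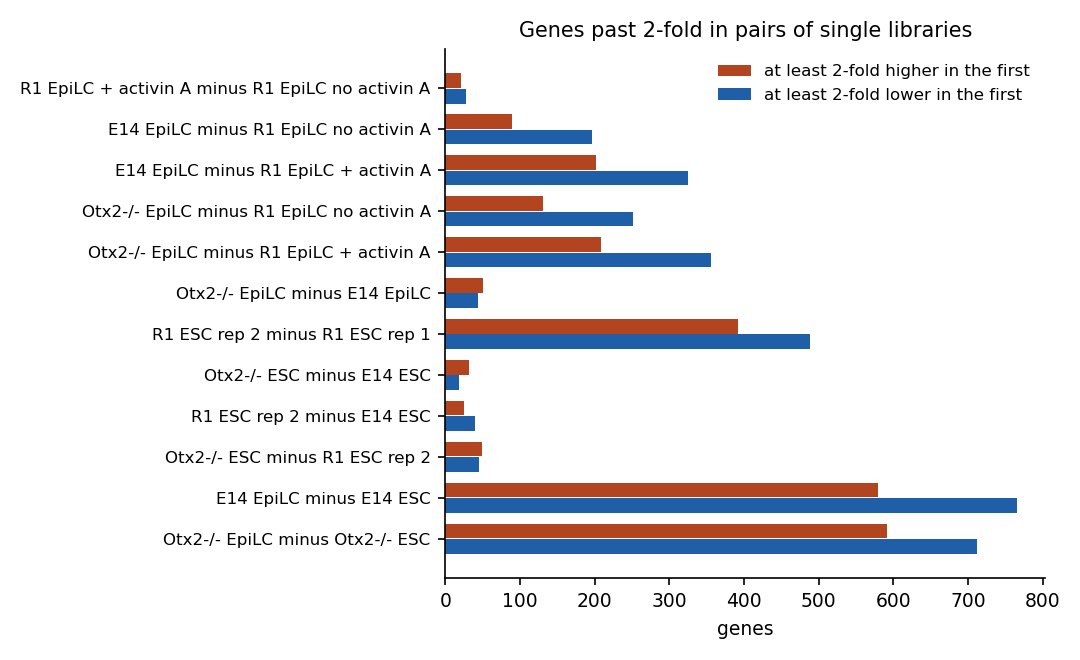
Number of genes at least 2-fold higher (red) and lower (blue) in the first library of each pair, 1 library against 1, on the reduced set of entries. The activin A pair at the top has 21 and 28 genes, Otx2-/- against E14 EpiLCs 51 and 44 (0.592% and 0.511%), and R1 ESC replicate 2 against 1 has 392 and 489 (4.4% and 5.49%).

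Within the Nodal and activin pathway, 4 of the 13 compared inhibitors (Lefty1, Lefty2, Smad7 and Pmepa1) were at least 2-fold higher with activin A, beside 0.242% of all 8693 genes. The other 9 inhibitors differed by -0.27 to 0.27. None of the 16 compared ligands, receptors and intracellular signal transducers was past 2-fold, a share near that of all genes (0.564%). The lists overlap: the 4 inhibitors, Nodal, Gdf3, Tdgf1 and Skil are also listed targets. Of 14 listed targets 10 reached 5 FPKM, 5 of them were past 2-fold and all 10 lay above 0, with a median difference of 0.84. Over the 8693 genes the median was -0.01 and 47.7% lay above 0. The 21 compared genes of these lists that are not targets had a median of -0.01, and 0 were past 2-fold.

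Of 11 ligand genes, 3 were compared. Nodal stood at 41.3 FPKM with activin A and 30.2 FPKM without it, a difference of 0.44, against 52.6 FPKM in Otx2-/- and 51.8 FPKM in E14 EpiLCs. Gdf3, a Nodal-related ligand, stood at 27.7 FPKM with activin A and 26.2 FPKM without it. Gdf1, which in the mouse embryo acts as a partner of Nodal and shares a transcript with Cers1, so that reads of both genes cannot be told apart, stood at 7.21 FPKM with activin A and 9.99 FPKM without it. The activin subunit genes were low: Inhba had 0.0227 FPKM with activin A and was listed at 0 without it, and Inhbb had 2.83 FPKM with activin A and 0.884 FPKM without it.

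Of 9 receptor and co-receptor genes, 4 were compared. Tdgf1 had the highest FPKM, a level per length, of all compared genes of these lists, at 687 FPKM with activin A and 475 FPKM without it, a difference of 0.53. In Otx2-/- and E14 EpiLCs it stood at 496 and 476 FPKM, but the R1 ESC replicates alone spanned 285 to 796 FPKM. The type II receptor Acvr2b stood at 24.6 FPKM with activin A and 27.4 FPKM without it, and the type I receptor Acvr1b at 9.23 FPKM with activin A and 9.27 FPKM without it. Tgfbr1, the type I receptor of TGF-beta, stood at 9.75 FPKM with activin A and 8.83 FPKM without it. Acvr1c, the other Nodal type I receptor, was under 0.05 FPKM in both, with 0.0391 FPKM with activin A and 0.0125 FPKM without it.

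All 9 signal transducers were compared, and their differences lay between -0.27 and 0.15. Smad2 had 14.8 FPKM with activin A and 15.4 FPKM without it, and Smad4, the shared partner of receptor-activated Smads, had 29.6 FPKM with activin A and 29.4 FPKM without it. Smad3 had 17.8 FPKM with activin A and 21.3 FPKM without it, a difference of -0.25, and Foxh1, the DNA-binding partner of Smad2, had 54.2 FPKM with activin A and 65.5 FPKM without it, a difference of -0.27. The transcriptional co-regulators Ep300 and Trim33 and the Smad anchor Zfyve9 differed by at most 0.05 in size, and of the proprotein convertases that process Nodal, Pcsk6 differed by 0.01 and Furin by 0.15. Both Smad3 values in R1 EpiLCs lay above the 10.4 FPKM of Otx2-/- and the 9.56 FPKM of E14 EpiLCs.

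The inhibitors held the largest differences. Lefty1, a secreted antagonist of Nodal, had 111 FPKM with activin A and 34.3 FPKM without it, a ratio of 3.24 and a log2 difference of 1.67. Lefty1 stood at 200 FPKM in Otx2-/- EpiLCs, 140 FPKM in E14 EpiLCs and 17.7 to 31.7 FPKM in the 4 ESC libraries. The R1 library without activin A was thus the lowest of the 4 EpiLC libraries and lay just above the ESC range, while the one with activin A was nearer the other EpiLC libraries.

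Lefty2, its close relative, had 30.6 FPKM with activin A and 8.91 FPKM without it, a ratio of 3.44 and a log2 difference of 1.67. It stood at 75.2 FPKM in Otx2-/- EpiLCs and 49.9 FPKM in E14 EpiLCs. In the 4 ESC libraries it spanned 14.5 to 43.6 FPKM, both ends of which were R1 replicates, so the library without activin A was below each of them. Lefty1 and Lefty2 are similar in sequence: 23.0% of the stretches of 36 bases in a Lefty1 transcript also occur in a Lefty2 transcript of the GENCODE annotation, so reads from these parts could have been assigned to either gene.

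Smad7, which blocks type I receptors from inside the cell, had 13.4 FPKM with activin A and 4.08 FPKM without it, a log2 difference of 1.51. It stood at 16.2 FPKM in Otx2-/- EpiLCs, 16.9 FPKM in E14 EpiLCs and 21.9 to 29.1 FPKM in the ESC libraries. Pmepa1, a membrane protein that restrains Smad signalling, had 6.32 FPKM with activin A and 2.33 FPKM without it, a log2 difference of 1.13. It stood at 6.53 FPKM in Otx2-/- EpiLCs, 5.09 FPKM in E14 EpiLCs and 6.56 to 7.84 FPKM in the ESC libraries. For both genes the library without activin A was the single low one among these 8.

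The other 9 inhibitors compared differed by -0.27 to 0.27. The nuclear repressor Skil, which other cells induce under TGF-beta, had 108 FPKM with activin A and 93.3 FPKM without it, and its paralog Ski had 24.0 FPKM with activin A and 19.8 FPKM without it. The co-repressors Tgif1, Tgif2 and Drap1, the Smad phosphatase Ppm1a and the ubiquitin ligases Smurf1 and Smurf2 differed by 0.01 to 0.13 in size. Nomo1, which restrains Nodal signalling in zebrafish, had 28.5 FPKM with activin A and 34.5 FPKM without it. Fst (follistatin), Fstl3, Cer1 and Bambi, which act on the ligands or the receptors, were under 5 FPKM in both libraries.

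Among the targets that are not inhibitors, Bcar3, an adaptor protein gene, had 29.1 FPKM with activin A and 19.7 FPKM without it, a difference of 0.54, and stood at 31.5 FPKM in Otx2-/- and 37.3 FPKM in E14 EpiLCs. In all 10 targets compared, the library without activin A was the lowest of the 4 EpiLC libraries, while over the 8693 genes it was the lowest for 16.6%. With 5 FPKM added in place of 1 before the log, Pmepa1 (0.63) was under the 2-fold limit, while Lefty1, Lefty2 and Smad7 were past it. The count of lowest libraries shares the untreated library with the differences above, and the labels leave the treatment of the E14 and Otx2-/- EpiLCs unstated.

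**Figure D3:**
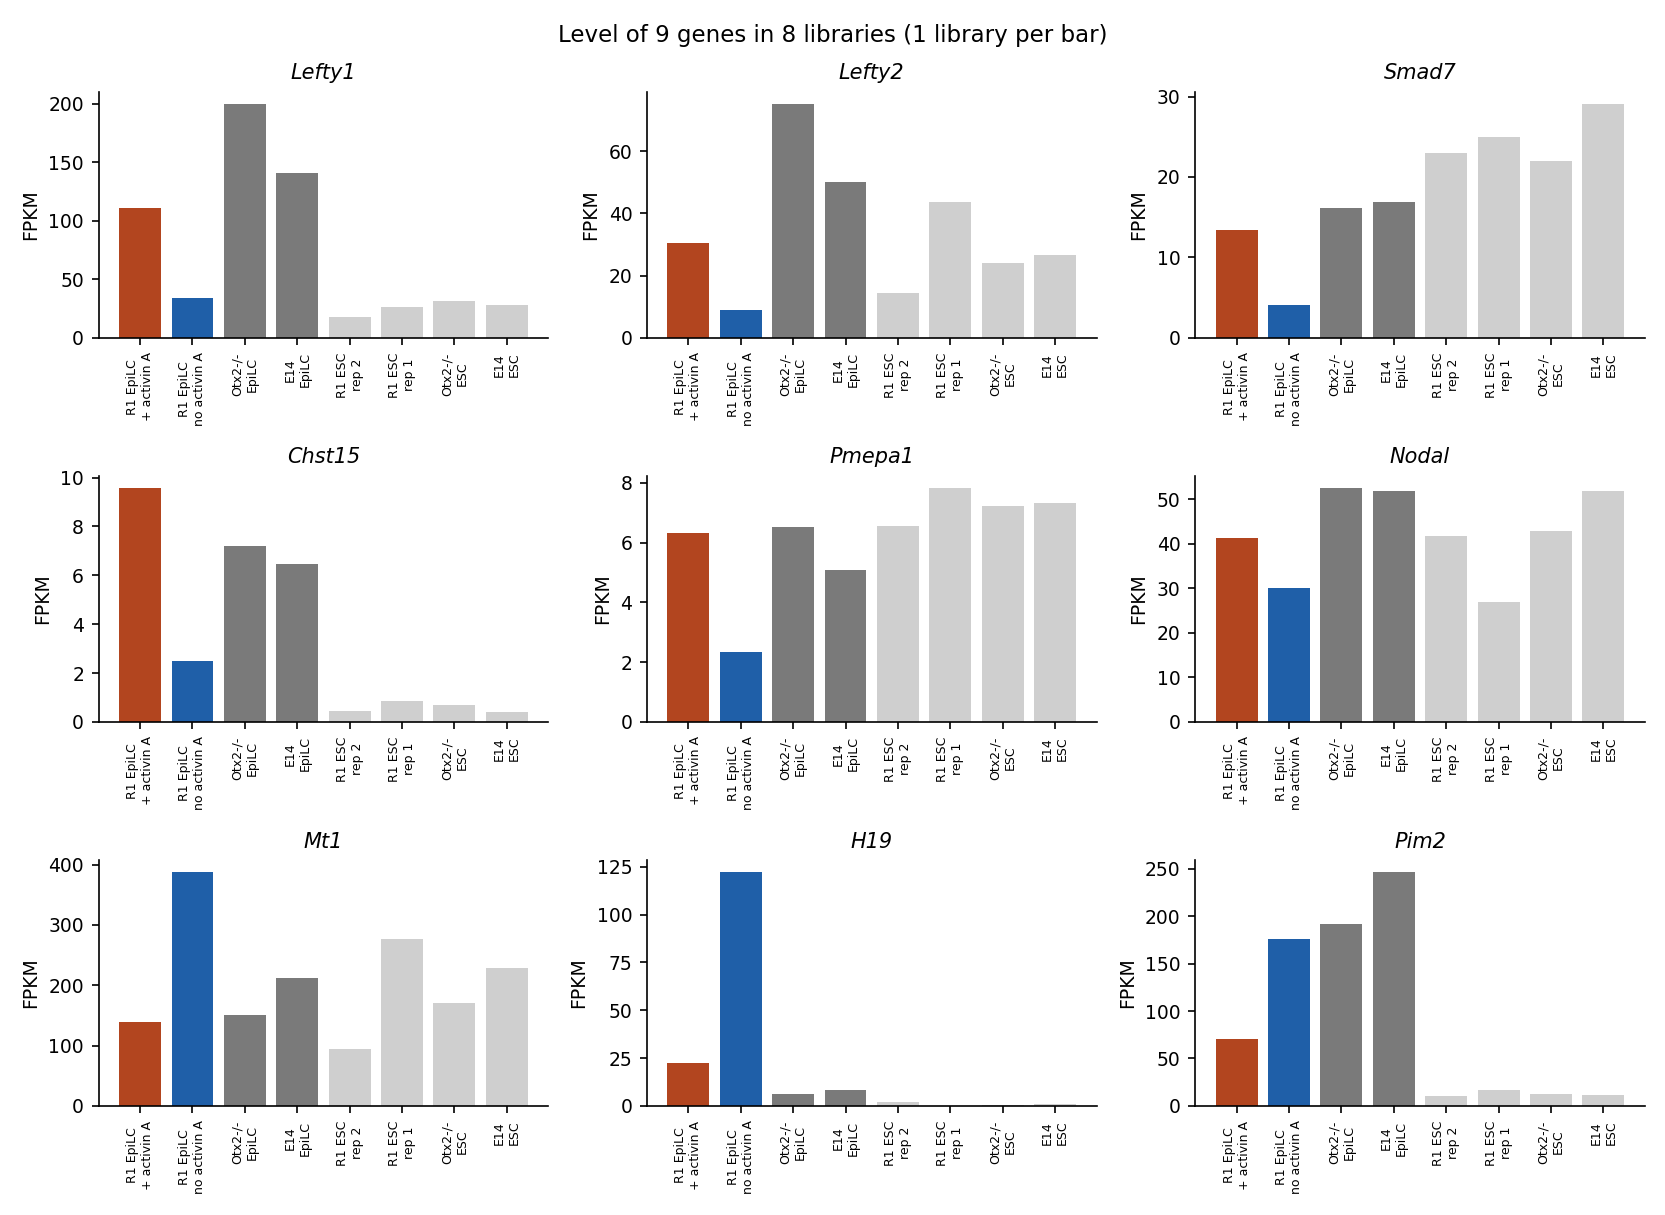
FPKM of 9 genes in 8 libraries, 1 bar per library, with R1 EpiLCs with activin A in red, R1 EpiLCs without it in blue, other EpiLCs in dark grey and ESCs in light grey. Lefty1, Lefty2, Smad7, Chst15 and Pmepa1 are low in the blue bar relative to the other EpiLC bars, whereas H19 is high in the blue bar, at 122 FPKM.

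Both Lefty genes lie on chromosome 1 beside neighbours that differed in the same direction. In order along mm9 chromosome 1, the compared genes Lefty2 (182823250 to 182829233), Lefty1 (182865170 to 182868532) and Tmem63a (182872649 to 182905235) were all at least 2-fold higher with activin A. These 3 genes lie within 82.0 kb. Tmem63a, a mechanosensitive ion channel, had 16.0 FPKM with activin A and 6.87 FPKM without it, a log2 difference of 1.12. Ephx1, an epoxide hydrolase, had 9.40 FPKM with activin A and 5.52 FPKM without it, a log2 difference of 0.67.

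Farther out the differences were small. The compared genes Parp1, Lin9, Acbd3, H3f3a, BC031781, Nvl, Cnih4 and Wdr26, all within 400 kb of Lefty1, differed by -0.02 to 0.35. The nearest compared gene beyond Lefty2, BC031781, differed by 0.01, and Nvl, a nuclear ATPase gene on the other side, differed by 0.14. In the E14 cells, which share no library with the activin A pair, Lefty1 and Tmem63a were also at least 2-fold higher in EpiLCs than in ESCs, as were 580 genes in all (6.41%). Their E14 differences were 2.27 for Lefty1 and 2.74 for Tmem63a, while Lefty2 differed by 0.89 and Ephx1 by 0.47. In Otx2-/- cells the EpiLC minus ESC differences were 2.62 for Lefty1, 2.26 for Tmem63a, 1.61 for Lefty2 and 0.22 for Ephx1, beside 592 genes in all past 2-fold in that direction (6.53%).

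**Figure D4:**
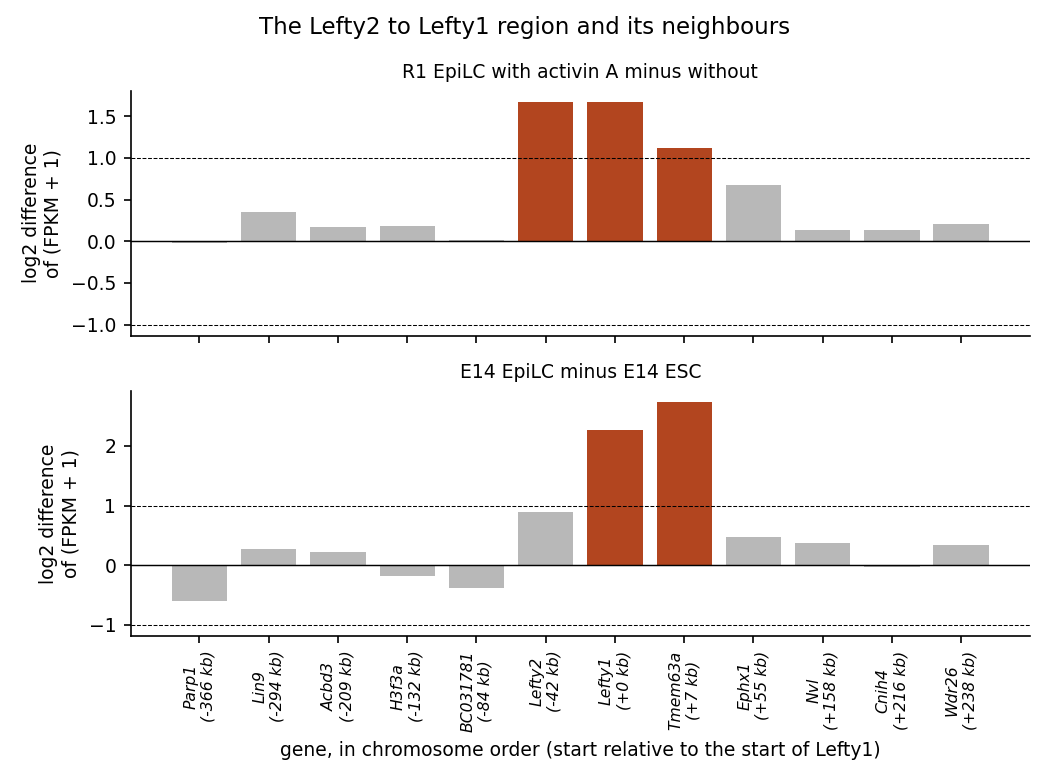
Log2 difference of (FPKM + 1) for 12 compared genes within 400 kb of Lefty1, in chromosome order, for R1 EpiLCs with minus without activin A (top) and for E14 EpiLCs minus E14 ESCs (bottom). Red bars pass 2-fold: Lefty2, Lefty1 and Tmem63a at the top, and Lefty1 and Tmem63a at the bottom.

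Other neighbouring genes also passed the limit together. Zbp1 and Pmepa1, 5.54 kb apart on chromosome 2, were both higher, and H19 with Igf2, Mt2 with Mt1, and Zyx with Epha1 were both lower. None of these pairs overlapped in the listed coordinates, although only 0.092 kb lay between Zyx and Epha1. For neighbours that do overlap, reads cannot be told apart, since the libraries carry no strand.

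The genes outside the pathway lists that were higher with activin A included a sulfotransferase, a receptor, an FGF ligand and a cyclin. Chst15, a sulfotransferase of chondroitin sulfate, had 9.58 FPKM with activin A and 2.51 FPKM without it, a difference of 1.59, and 7.21 FPKM in Otx2-/- and 6.48 FPKM in E14 EpiLCs. Epha2, an ephrin receptor, had 25.2 FPKM with activin A and 10.7 FPKM without it, a difference of 1.17, and stood at 26.7 FPKM in Otx2-/- and 17.1 FPKM in E14 EpiLCs. Fgf15, an FGF ligand gene that was at most 3.24 FPKM in the 4 ESC libraries, had 15.2 FPKM with activin A and 6.31 FPKM without it, a difference of 1.14, and 8.87 FPKM in Otx2-/- and 19.8 FPKM in E14 EpiLCs. In these 3 genes the library without activin A was the lowest of the 4 EpiLC libraries, as it was for 14 of the 21 higher genes. The 2-fold limit itself favours this order, so it is a description. With 5 FPKM added before the log, the differences of Chst15, Epha2 and Fgf15 were 0.96, 0.95 and 0.83.

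Zbp1, a nucleic acid sensor of the interferon response, followed another order. It had 23.1 FPKM with activin A and 8.25 FPKM without it, a difference of 1.38, but 1.73 FPKM in Otx2-/- and 4.26 FPKM in E14 EpiLCs, so both R1 libraries lay above the others. Ccnd2, which encodes cyclin D2, had 10.7 FPKM with activin A and 4.70 FPKM without it, a difference of 1.04, and 3.26 and 3.22 FPKM in Otx2-/- and E14 EpiLCs. Copz2, a coat protein gene, had 37.7 FPKM with activin A and 15.4 FPKM without it, a difference of 1.24, and ranged from 2.16 to 58.5 FPKM over the other 8 libraries. A list of 24 interferon-inducible genes, drawn up after the values had been seen, had 13 compared, of which Zbp1 alone was past 2-fold, with a median of 0.30. Over all 8693 genes 0.242% were at least 2-fold higher and the median was -0.01. Between Otx2-/- and E14 EpiLCs the median of the list was -0.78, a larger difference than in the activin A pair. Because the list followed the values, its count and medians are a description.

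A few of the remaining higher genes had more in most ESC libraries than in either R1 EpiLC library. Gm7325, a predicted gene, had 22.6 FPKM with activin A and 10.0 FPKM without it, a difference of 1.10, against 48.4 to 77.4 FPKM in the 4 ESC libraries. Cd97, an adhesion receptor, had 11.3 FPKM with activin A and 4.71 FPKM without it, a difference of 1.11, and 9.95 to 36.3 FPKM in ESCs, with R1 ESC replicate 1 alone below the EpiLCs with activin A. Pde8a, a cAMP phosphodiesterase, had 6.21 FPKM with activin A and 2.46 FPKM without it, a difference of 1.06, and 5.54 to 10.6 FPKM in ESCs, again with R1 ESC replicate 1 alone below the EpiLCs with activin A. These 3 were higher with activin A than in Otx2-/- or E14 EpiLCs. Nefl, a neurofilament gene, differed by 1.09, with 18.3 FPKM with activin A and 8.07 FPKM without it, and lay between 11.5 and 28.9 FPKM in the other 8 libraries.

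Naive pluripotency genes were slightly higher with activin A. Of 18 listed genes, 12 were compared and none was past 2-fold, but 11 lay above 0, with a median difference of 0.29. Nanog, whose entry is named together with the pseudogene Nanogpd, had 164 FPKM with activin A and 106 FPKM without it, a difference of 0.62, against 102 FPKM in Otx2-/- EpiLCs, 85.8 FPKM in E14 EpiLCs and 364 to 562 FPKM in ESCs. Nr0b1, which encodes the nuclear receptor Dax1, had 12.3 FPKM with activin A and 6.28 FPKM without it, a difference of 0.87, against 63.8 to 71.6 FPKM in ESCs.

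Fgf4, the ligand through which ESCs activate ERK in themselves, had 114 FPKM with activin A and 80.6 FPKM without it, a difference of 0.50. Esrrb, a nuclear receptor of naive cells, had 21.5 FPKM with activin A and 17.4 FPKM without it, a difference of 0.29, against 194 to 217 FPKM in ESCs. The exception was Dppa3, a maternal and germline factor, at 6.59 FPKM with activin A and 8.12 FPKM without it. In 10 of the 12 compared naive genes the library with activin A was the highest of the 4 EpiLC libraries, while over the 8693 genes it was the highest for 28.8%. Klf4 and Tbx3, at 0.84 and 0.988 FPKM with activin A and 1.09 and 0.797 FPKM without it, stayed near the bottom of the range in both.

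Formative and primed epiblast genes did not move together. Of 23 listed genes 22 were compared, with 8 above 0, 14 below 0 and a median of -0.13, and Pim2 alone was past 2-fold. Otx2 differed by 0.49, at 151 FPKM with activin A and 107 FPKM without it, and Fgf5 had 35.8 FPKM with activin A and 28.4 FPKM without it, a difference of 0.32, with 5.18 FPKM in Otx2-/- and 30.4 FPKM in E14 EpiLCs. Pou3f1, the POU factor Oct6, went the other way, with 42.0 FPKM with activin A and 72.2 FPKM without it, a difference of -0.77, against 74.2 FPKM in Otx2-/- and 68.9 FPKM in E14 EpiLCs.

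Dnmt3b, a de novo DNA methyltransferase, had 159 FPKM with activin A and 239 FPKM without it, a difference of -0.58, against 289 FPKM in Otx2-/- and 337 FPKM in E14 EpiLCs. Its partner Dnmt3a had 68.4 FPKM with activin A and 69.4 FPKM without it. Sox3, a neural and epiblast SoxB1 gene, had 8.42 FPKM with activin A and 14.9 FPKM without it, a difference of -0.75. Pim2, a serine kinase gene, had 70.2 FPKM with activin A and 176 FPKM without it, a difference of -1.31, against 191 FPKM in Otx2-/- EpiLCs, 247 FPKM in E14 EpiLCs and 10.5 to 16.4 FPKM in ESCs. For Pou3f1, Dnmt3b, Sox3 and Pim2 the library with activin A was the lowest of the 4 EpiLC libraries.

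Of 12 general pluripotency genes, all were compared and none was past 2-fold, with a median of 0.01. Sox2 had 131 FPKM with activin A and 103 FPKM without it, a difference of 0.35, and Lin28a, an RNA-binding protein that blocks let-7, had 109 FPKM with activin A and 170 FPKM without it, a difference of -0.64. The R1 ESC replicates differed by 1.65 in size for Lin28a.

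**Figure D5:**
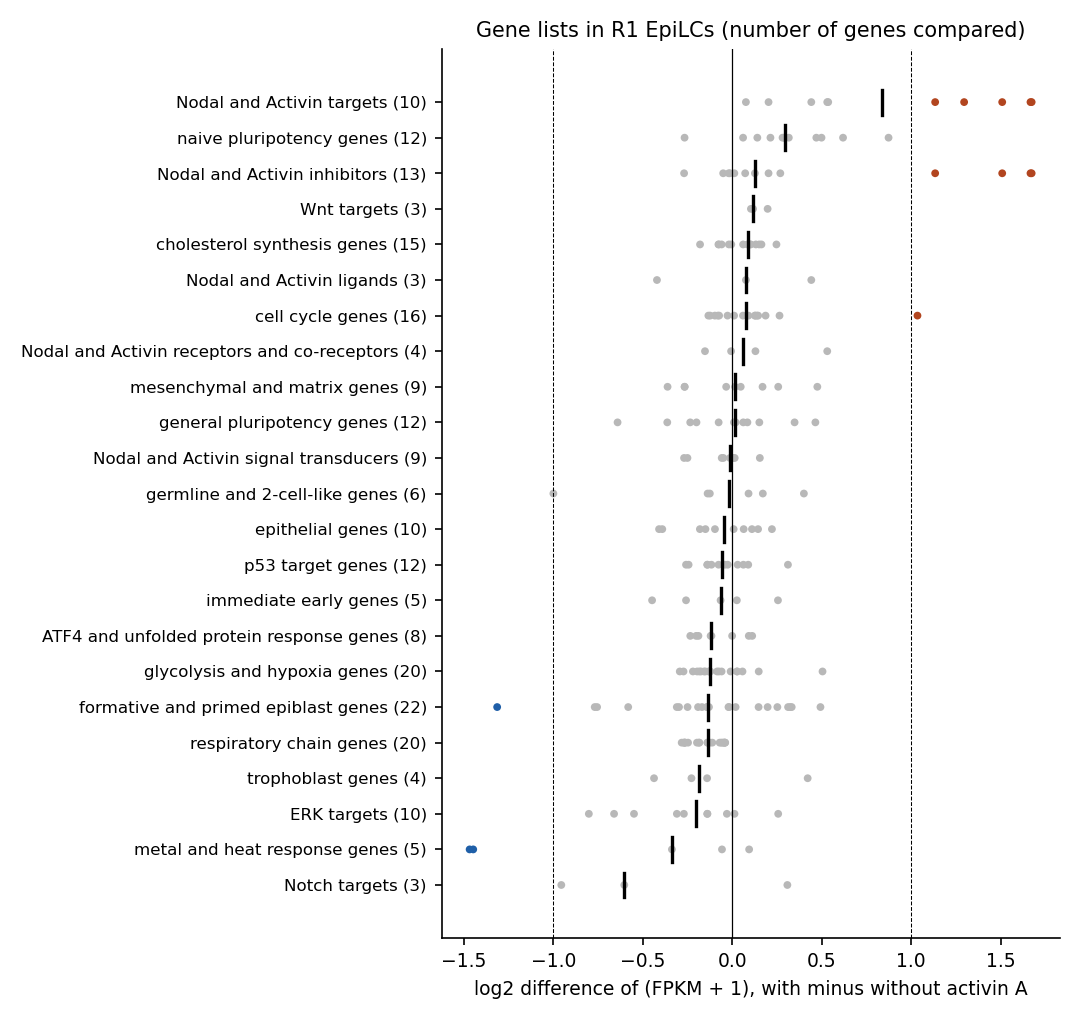
Log2 difference of (FPKM + 1), with minus without activin A, of each compared gene (points) and the median (black bars) of each gene list with at least 3 compared genes, without the interferon and imprinted lists. Red points are at least 2-fold higher and blue points at least 2-fold lower; the Nodal and Activin targets stand at the top with a median of 0.84 and the naive pluripotency genes follow with 0.29.

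Among the genes lower with activin A were the metallothioneins, small proteins that bind zinc and copper and are induced by metals through the factor MTF1. Mt1 had 140 FPKM with activin A and 388 FPKM without it, a difference of -1.47, and Mt2 had 149 FPKM with activin A and 409 FPKM without it, a difference of -1.45. Mt3 had 12.4 FPKM with activin A and 24.6 FPKM without it, a difference of -0.93. Mt1 stood at 151 FPKM in Otx2-/- and 213 FPKM in E14 EpiLCs, and Mt2 at 231 and 318 FPKM, so the library without activin A was the highest of the 4 for both. The R1 ESC replicates differed by 1.54 in size for Mt1, which is more than in the activin A pair, and by 0.17 for Mt2.

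The zinc exporter Slc30a1, another known MTF1 target, had 3.57 FPKM with activin A and 3.07 FPKM without it, and Hmox1, a heme oxygenase that stress induces, had 20.5 FPKM with activin A and 26.2 FPKM without it. Of 8 metal and heat response genes 5 were compared, and Mt1 and Mt2 were the 2 past 2-fold, beside 0.322% of all 8693 genes at least 2-fold lower. The median of this list was -0.34, against -0.46 for Otx2-/- minus E14 EpiLCs and -0.63 for R1 ESC replicate 2 minus 1. Transcripts of Mt1 and Mt2 share no exact stretch of 36 bases in the GENCODE annotation. Matches with mismatches were not examined, and the part of shared reads in their like differences was not tested.

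The promoters of Mt1 and Mt2 are shown because the 2 genes differed together. They are RefSeq windows on build GRCm38.p6 from 250 bases before to 50 after the gene's start, both on the plus strand, printed 5′ to 3′, at chr8:94178839-94179138 for Mt1 and chr8:94172368-94172667 for Mt2. Capitals mark matches on either strand to the core of the metal response element, TGCACNC or TGCGCNC, where N is any base.
Mt1: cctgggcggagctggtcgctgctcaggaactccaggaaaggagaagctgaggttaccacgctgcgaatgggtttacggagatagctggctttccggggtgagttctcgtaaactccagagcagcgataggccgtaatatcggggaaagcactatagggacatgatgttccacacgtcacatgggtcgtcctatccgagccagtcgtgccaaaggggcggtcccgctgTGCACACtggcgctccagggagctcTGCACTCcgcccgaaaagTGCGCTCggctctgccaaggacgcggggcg
Mt2: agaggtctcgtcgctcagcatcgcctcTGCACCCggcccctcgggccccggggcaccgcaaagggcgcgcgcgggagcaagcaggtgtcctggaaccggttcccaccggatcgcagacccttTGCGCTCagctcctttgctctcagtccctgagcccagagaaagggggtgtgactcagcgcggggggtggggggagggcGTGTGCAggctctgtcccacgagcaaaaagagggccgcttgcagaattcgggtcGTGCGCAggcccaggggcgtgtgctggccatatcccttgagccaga
The window of Mt1 held 3 matches and that of Mt2 held 4. At least 1 match was present in 25.7% and at least 3 in 1.97% of 32851 promoter windows of the same length, so a match is a description of these letters and not of binding. Promoter windows were at hand for 27 of the 49 genes past 2-fold.

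H19 and its neighbour Igf2 were both lower with activin A. H19, an imprinted non-coding RNA on mm9 chromosome 7 at 149761437 to 149764051, had 22.4 FPKM with activin A and 122 FPKM without it, a ratio of 5.46 in favour of the library without it and a log2 difference of -2.40. It stood at 6.46 FPKM in Otx2-/- EpiLCs, 8.55 FPKM in E14 EpiLCs and at most 1.81 FPKM in the 4 ESC libraries. Both R1 EpiLC libraries were thus above all 8 others, whose highest value was 9.22 FPKM.

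Igf2, the growth factor gene next to H19 that is imprinted in the opposite way, had 1.77 FPKM with activin A and 8.08 FPKM without it, a difference of -1.71, and between 0.844 and 4.33 FPKM in the other 8 libraries. With 5 FPKM added before the log, the Igf2 difference was -0.95. Igf2bp1, an RNA-binding protein gene that binds Igf2 and H19 RNA, had 59.7 FPKM with activin A and 153 FPKM without it, a difference of -1.34. It stood at 161 FPKM in Otx2-/- and 112 FPKM in E14 EpiLCs, and the library with activin A was the lowest of all 10. In a list of 28 imprinted genes drawn up after the values had been seen, 20 were compared. Of these 3 (H19, Igf2 and Sfmbt2) were at least 2-fold lower, 15 lay below 0 and 5 above, and the median was -0.13. Over all 8693 genes 0.322% were at least 2-fold lower and 47.7% lay above 0. Because the list followed the values of H19 and Igf2, these counts are a description.

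Markers of other cell types differed in both directions, at low levels. The 6 fibroblast markers summed to 3.38 FPKM with activin A and 5.78 FPKM without it, with Lum at 0 in both and Col3a1 at 0 with activin A, and over all 4 EpiLC libraries the sum ran from 3.38 to 8.19 FPKM. The 4 trophoblast markers summed to 1.32 FPKM with activin A and 3.96 FPKM without it, with Hand1 at 0.579 FPKM with activin A and 2.60 FPKM without it, and Elf5 at 0 without it. The 4 neural markers summed to 5.48 FPKM with activin A and 9.20 FPKM without it, against 42.3 to 57.5 FPKM in the 4 ESC libraries. None of these fibroblast or neural markers and 1 of the trophoblast markers was higher with activin A. In the longer list of 15 neural and anterior genes, the 2 that reached 5 FPKM, Fzd5 and Sfrp1, were higher with activin A. Six3, Fezf2 and Shisa2, under 5 FPKM, were also higher with it. The 5 primitive endoderm markers summed to 3.49 FPKM with activin A and 4.20 FPKM without it, although 3 of the 5 were higher with activin A. All 6 primitive streak markers were higher with activin A, with a sum of 9.11 FPKM with it and 6.15 FPKM without it, most of it Eomes, and Foxa2, Sox17 and Cxcr4 were also slightly higher with activin A. Their part in the lower levels of H19, Igf2 and other genes was not tested, and in bulk RNA fewer cells of a type cannot be told apart from less RNA per cell.

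Gbx2, a homeobox gene that opposes Otx2 at the midbrain-hindbrain boundary, had 5.69 FPKM with activin A and 18.7 FPKM without it, a difference of -1.56. It stood at 27.2 FPKM in Otx2-/- and 22.1 FPKM in E14 EpiLCs, but the R1 ESC replicates held 7.31 and 26.6 FPKM, a difference of 1.73 in size. Tdh, the threonine dehydrogenase that naive ESCs use, had 5.34 FPKM with activin A and 14.2 FPKM without it, a difference of -1.27, against 41.8 FPKM in Otx2-/- EpiLCs, 28.9 FPKM in E14 EpiLCs and 246 to 449 FPKM in ESCs. Both R1 EpiLC libraries had less Tdh than any of the other 8. Tdh was thus lower with activin A, in contrast to the 11 naive genes above 0.

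Fgfr2, an FGF receptor, had 2.13 FPKM with activin A and 6.41 FPKM without it, a difference of -1.24. Epha1, an ephrin receptor, had 7.37 FPKM with activin A and 16.6 FPKM without it, a difference of -1.07, while its relative Epha2 above was higher. Neurog3, a proneural and pancreatic transcription factor gene, had 3.56 FPKM with activin A and 9.89 FPKM without it, a difference of -1.26, and Thbs1, a matrix protein gene that can activate latent TGF-beta, had 4.02 FPKM with activin A and 10.6 FPKM without it, a difference of -1.21. Btbd17, a BTB-domain gene, had 1.77 FPKM with activin A and 5.95 FPKM without it, a difference of -1.33 that was -0.69 with 5 FPKM added before the log. Fgfr2, Neurog3, Thbs1 and Btbd17 had their highest level of all 10 libraries in the one without activin A.

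The remaining lower genes differed in which R1 library stood apart. Zyx, a focal adhesion protein gene next to Epha1, had 6.64 FPKM with activin A and 15.2 FPKM without it, against 19.04 FPKM in Otx2-/- and 24.4 FPKM in E14 EpiLCs. Sfmbt2, Rragd, Phc2 and Igdcc3 likewise had less with activin A than in any other EpiLC library, and their differences lay between -1.07 and -1.03. Ramp2, Trp53i11 and Mpzl2 were instead higher without activin A than in every other library of the series: Ramp2, a receptor-modifying protein gene, had 11.9 FPKM with activin A and 26.6 FPKM without it, and at most 12.49 FPKM in the other 8. Inpp5b, a phosphatase of inositol lipids, had 7.02 FPKM with activin A, 17.9 FPKM without it and 7.03 to 12.8 FPKM in the other 8. Over all 28 lower genes, the library with activin A was the lowest of the 4 EpiLC libraries for 19 and the one without it was the highest for 17. The 2-fold limit itself favours both orders, so these counts are a description.

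Negative feedback genes of the FGF and ERK pathway were slightly lower with activin A. Of 12 ERK targets 10 were compared, none past 2-fold, with 8 below 0 and a median of -0.20. Over all 8693 genes 47.7% lay above 0. The median of the ERK list was -0.52 for R1 ESC replicate 2 minus 1, a larger difference than in the activin A pair, and -0.09 for Otx2-/- minus E14 EpiLCs. Dusp4, a phosphatase that inactivates ERK, had 10.5 FPKM with activin A and 18.98 FPKM without it, a difference of -0.80, and Dusp6, another ERK phosphatase, had 30.1 FPKM with activin A and 44.5 FPKM without it, a difference of -0.55. Etv5, an ETS factor, went the other way at 0.26, and Spry1 and Etv4 differed by -0.03 and 0.01. Dusp4 stood at 14.2 FPKM in Otx2-/- and 40.0 FPKM in E14 EpiLCs and Dusp6 at 48.6 and 74.7 FPKM, so the library with activin A was the lowest of the 4 for both.

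Of 10 Notch ligand and target genes 3 were compared. The ligand gene Dll1 had 4.24 FPKM with activin A and 9.15 FPKM without it, a difference of -0.95, and Dll3, a ligand that acts within the cell, had 3.93 FPKM with activin A and 6.49 FPKM without it, a difference of -0.60. Hes1, a Notch-responsive repressor, had 19.2 FPKM with activin A and 15.3 FPKM without it, a difference of 0.31. With so few genes the median of -0.60 is that of Dll3.

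Few BMP, Wnt and lineage genes reached 5 FPKM. Of 11 BMP genes 2 were compared, and neither Smad6, an inhibitory Smad of the BMP branch, at 0.37, nor Bmp7, a BMP ligand, at 0.16 was past 2-fold. The BMP targets Id1, Id2 and Id3, inhibitors of differentiation factors, were under 5 FPKM, and Id2 had 2.16 FPKM with activin A and 4.39 FPKM without it. Of 10 Wnt targets 3 were compared, with a median of 0.12. Hhex, a regulator of anterior endoderm, was the only one of 9 definitive endoderm genes compared, at 5.49 FPKM with activin A and 3.88 FPKM without it, a difference of 0.41. Epithelial genes and mesenchymal genes had medians of -0.04 and 0.02, and Fn1, which encodes fibronectin, differed by 0.48, with 65.1 FPKM with activin A and 46.5 FPKM without it.

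Most metabolic genes differed by small amounts, with medians below 0 in the respiratory chain and glycolysis lists and above 0 in the cholesterol synthesis list. All 20 respiratory chain genes lay below 0, with differences from -0.28 to -0.04 and a median of -0.14, and of 20 glycolysis and hypoxia genes 15 lay below 0, with a median of -0.12. The respiratory chain median between Otx2-/- and E14 EpiLCs was -0.11. Differences in the activin A pair also moved with transcript length. In the fifth of genes with the shortest transcripts (up to 731 bases by the GENCODE median) the median was -0.04, and in the fifth with the longest (from 2505 bases) it was 0.03. The part of length in the respiratory chain result was not tested. Of 17 cell cycle genes 16 were compared, with a median of 0.08 and Ccnd2 alone past 2-fold, and of 16 cholesterol synthesis genes 15 were compared, with a median of 0.09 and none past 2-fold. Among 12 p53 targets, 8 ATF4 and unfolded protein response genes and 5 immediate early genes none was past 2-fold, and their medians were -0.06, -0.12 and -0.06.

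Several of the largest differences belonged to genes that jumped in 1 library or varied widely among the other libraries. Rps6ka4, a kinase gene, had 8.65 FPKM with activin A and 348 FPKM without it, a difference of -5.18, against 5.17 to 8.40 FPKM in the other 8 libraries, so 1 library alone was high. Actr5, a chromatin remodelling subunit gene, had 9.40 FPKM with activin A and 110 FPKM without it, and ranged from 7.11 to 161 FPKM in the other 8. Prmt2, an arginine methyltransferase gene, had 14.5 FPKM with activin A and 153 FPKM without it, and ranged from 9.18 to 147 FPKM in the other 8. In each of these 3 genes the level without activin A was more than 10 times that with it.

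Nupl1, a nuclear pore gene, had 31.2 FPKM with activin A and 108 FPKM without it, and ranged from 29.9 to 236 FPKM in the other 8 libraries. Apba3, an adaptor protein gene, had 63.0 FPKM with activin A and 9.33 FPKM without it, a difference of 2.63, and ranged from 15.8 to 119 FPKM elsewhere. Dgcr8, a subunit of the microRNA processor, had 77.3 FPKM with activin A and 14.4 FPKM without it, a difference of 2.35. Dgcr8 ranged from 17.5 to 95.6 FPKM in the other 8 libraries, and both ends were R1 ESC replicates. The histone gene Hist1h2af, whose main transcripts lack a poly(A) tail, had 37.3 FPKM with activin A and 8.87 FPKM without it, and ranged from 0 to 17.2 FPKM elsewhere, and Hist1h4d, another histone gene on chromosome 13, had 7.96 FPKM with activin A and 3.14 FPKM without it. Their ranges over the other 8 libraries thus reach or pass the level of the higher R1 library for Actr5, Nupl1, Dgcr8 and Apba3.

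Genes that changed on differentiation in cells outside the activin A pair differed slightly in it. In E14 cells, where 6.41% of genes were higher and 8.45% lower in EpiLCs, the 529 compared genes at least 2-fold higher in EpiLCs than in ESCs had a median activin A difference of -0.05, and the 499 at least 2-fold lower had a median of 0.09, against -0.02 for the 7302 between. In Otx2-/- cells, where 6.53% were higher and 7.85% lower, these medians were -0.07 for 526 genes higher, 0.09 for 443 lower and -0.02 for 7342 between. Of the 529 genes higher in E14 EpiLCs, 40.3% lay above 0 with activin A, and of the 499 lower ones 66.7%.

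Shifts of the same size appeared along the difference between the R1 ESC replicates. Genes at least 2-fold higher in replicate 2 than in replicate 1 numbered 319 and had a median activin A difference of 0.10, and the 380 lower ones had -0.12. Across 8070 genes the correlation of the activin A difference with that between the R1 ESC replicates was 0.23, against -0.12 with E14 differentiation (8330 genes), -0.17 with Otx2-/- differentiation (8311 genes) and 0.01 with Otx2-/- minus E14 EpiLCs (8223 genes). These are correlations across genes, which are not independent replicates.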

How the data were processed

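Per the labels' protocols, polyadenylated RNA was reverse transcribed with random hexamers, and the libraries, read on an Illumina Genome Analyzer, went through no described step that marks the strand. The authors deposited FPKM values for each gene, for which the submitters' processing notes name TopHat, Cufflinks and mm9; the sources used here give neither their versions nor the annotation. Each of 10 tables held 23112 entries; 18 exact repeats were dropped and entries sharing a symbol were summed, which left 22867. Starts are printed with 1 added, since for 7104 of 20150 genes the RefSeq span equals end minus start in the files, and for 450 it is 1 longer.

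FPKM values are not counts and each group had 1 library, so differences of log2(FPKM + 1) are described with no test. Genes are counted past 2-fold when at 5 FPKM or more in either library. The code for counting was checked on a copy of the untreated library in which some genes were multiplied by set factors, without noise. This check does not measure the error of a comparison of 1 library with 1. Members and 29 gene lists were chosen with earlier results of these data known, and 2 lists were added after the values were seen. Genes named were the 12 largest differences in each direction without small RNAs and entries listed at 0, compared members of the Nodal and Activin lists, up to 4 members of other lists, and 9 fixed genes. Other genes past 2-fold and neighbours of Lefty1 were named after their values were seen, and some genes are not reported here. Depth was approximated from the 25th percentile of values above 0 in olfactory receptor genes, taken as 1 fragment on 1 kb. Python 3.11.15, pandas 2.3.3 and numpy 2.4.6 were used. Alternatives changed the pseudocount, the limit on low values, the scaling, the entries included and the handling of repeated symbols.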

Additional observations from a re-analysis of the deposited data

How the results depend on the processing

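Counts of genes past 2-fold depended on which entries were included. Without small RNAs and entries listed at 0 they were 21 higher and 28 lower, against 96 and 96 over all entries. Under the other 8 alternatives (pseudocounts of 0.1 and 5 FPKM, limits of 1 and 10 FPKM, no limit, median-ratio and quantile scaling, and the highest entry of a symbol) they ran from 79 to 105 higher and 78 to 103 lower. The median of the Notch list moved from -0.60 to -0.14 with a limit of 1 FPKM and to -0.059 with no limit on low FPKM, under which more of its genes entered. The median of the Nodal and Activin targets lay between 0.49 and 0.98 under all alternatives, and that of the naive genes between 0.24 and 0.32. The metal and heat list had a median of 0.02 with no limit, against -0.34, while Mt1 and Mt2 stayed past 2-fold under every alternative. With a pseudocount of 5 FPKM, Pmepa1 (0.63), Chst15 (0.96), Epha2 (0.95), Fgf15 (0.83), Igf2 (-0.95) and Btbd17 (-0.69) were no longer past 2-fold. Of 511 values of single genes under the alternatives, 10 moved by more than 0.37 on the log2 scale, a limit derived from the R1 ESC replicates. None changed sign among genes past 2-fold. The limit is smaller than the standard deviation of the differences between those replicates, which was 0.63 on the reduced set of entries. No paired analysis was possible because each of the 2 groups has 1 library. With 1 library each, no difference could be set against replicate error within EpiLCs, and the depth of genes near 5 FPKM limits their ratios most.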
